A study of Glycine max with 4 samples.

Results

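The 8 loci described here are the soybean genes that the study's supplement annotates with the symbols of spindle checkpoint proteins and separase: *ESP1* (Glyma08g19650 and Glyma15g05350), *TTK* (Glyma04g43190), *MAD2* (Glyma11g37380 and Glyma18g01350), *BUBR1* (Glyma07g20070 and Glyma20g00930) and *BUB3* (Glyma10g40440). They were found by locus name, and all 8 were present, with 10 transcript models, among 46367 loci and 55787 models in all. *MAD2* at Glyma11g37380 had 3 models and every other locus had 1. The supplement annotates genes whose fold changes in these same libraries the study displayed, and how they were selected is not given in the sources used here, so their direction in the melatonin library is a description and not independent evidence.

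RNA was taken from leaves of soybean seedlings treated with water (H2O), 100 µM melatonin (Mt), 1% NaCl (NaCl), or 1% NaCl with 100 µM melatonin (NaCl+Mt), and 1 library was sequenced for each. The seedlings were *Glycine max*, for which the methods name the cultivar SuiNong 28 in the growth experiments. Their age is given as 3 weeks in the labels and methods and as 2 weeks in the text of the results. Melatonin was supplied in water from an ethanol stock, and whether the other groups received ethanol is not given in the sources used here. With 1 library per condition, no difference below could be checked against a replicate, no p-value was computed, and every interval covers the counting of reads alone. Without molecular identifiers, copies of 1 molecule made by PCR count as several reads, and these intervals hold neither that nor the variation between plants and preparations.

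Before chromosomes separate in mitosis, the spindle checkpoint waits until every kinetochore, the protein body on the centromere, is attached to spindle fibres. In yeast and animals, the kinase TTK, also called MPS1, starts the signal at unattached kinetochores. MAD2, BUBR1 and BUB3 then hold back CDC20, the activator of the anaphase-promoting complex. Once the checkpoint is satisfied, this complex destroys securin and B-type cyclins, and the protease separase, encoded by *ESP1*, cuts the cohesin rings that join sister chromatids. Plants have counterparts of these proteins. In a leaf, such genes are mainly used while cells still divide, before expansion.

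The 4 libraries held between 22908979 (H2O) and 36945028 (NaCl+Mt) reads on the transcript models. RPKM, the reads of a model scaled to its length in kilobases and to the depth of the library, was 0.064 (NaCl+Mt) to 0.103 (Mt) for 3 reads on a model of 1 kilobase. All 18 photosystem and *rbcS* loci of the supplement had reads in every library, and 17 or 18 of them had an RPKM of at least 1. Because the study displayed these loci for the same libraries, they are a weak check of the tissue. They cannot separate leaf from other green tissue, and no marker of meristem or dividing cells was used. The median RPKM of these leaf genes was 31.9 in H2O and 162 in Mt, with 100.04 in NaCl and 84.1 in NaCl+Mt. The Mt library stood apart from the other 3: Spearman's rho across loci was 0.751 to 0.793 between Mt and each other library, and 0.887 to 0.95 among the others. Loci are not independent, and rho is given as a description.

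Each of the 8 loci had its highest level of the 4 libraries in Mt. In that library all 8 had an RPKM of at least 1, from 1.24 to 13.5 with a median of 3.52. In each of H2O, NaCl and NaCl+Mt only *BUB3* did, and the medians were 0.167, 0.294 and 0.151. The summed RPKM of the 8 loci was 3.57 in H2O and 39.4 in Mt, with 4.53 in NaCl and 3.81 in NaCl+Mt. In a bulk leaf sample, a smaller number of dividing cells and less of these RNAs per cell cannot be told apart.

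**Figure D1:**
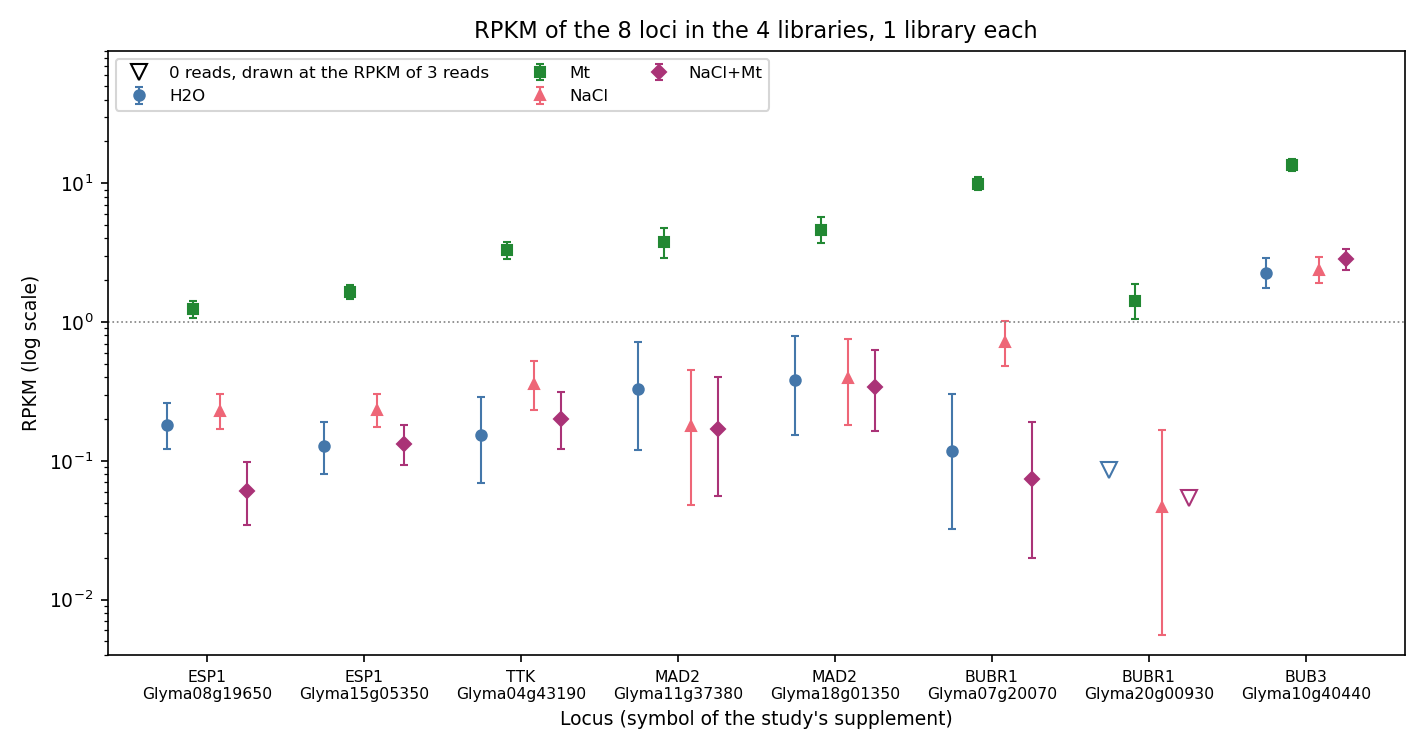
RPKM of the 8 loci in the 4 libraries (log scale), 1 point per library, with exact Poisson 95% intervals of the read count; an open triangle marks 0 reads and stands at the RPKM of 3 reads. The Mt square is the highest point at every locus, and *BUB3* is the only locus above an RPKM of 1 (dotted line) in the other 3 libraries.

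*TTK*, the kinase at the head of the checkpoint, had 9 reads in H2O and 194 in Mt, with 26 in NaCl and 19 in NaCl+Mt. Its RPKM in the same order was 0.152, 3.3, 0.356 and 0.201. Mt was thus far above the other 3 libraries, whose Poisson intervals overlapped one another. Such overlap does not show equal levels: the direct ratio of rates in NaCl:H2O was 2.33 (1.06 to 5.65). The ratio of read rates in Mt:H2O was 21.7 (95% interval 11.2 to 48.1).

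*MAD2*, whose protein changes shape when it captures CDC20, was read at similar levels from the 624-base models of both loci. Glyma11g37380, by its model of 624 bases, had 6 reads in H2O and 68 in Mt, with 4 in NaCl and 5 in NaCl+Mt, or an RPKM of 0.329, 3.75, 0.177 and 0.171. Glyma18g01350, also 624 bases long, had 7, 84, 9 and 10 reads, or an RPKM of 0.384, 4.63, 0.398 and 0.342. At both loci the Mt library stood alone and the intervals of the other 3 libraries overlapped. The Mt:H2O ratio of rates was 11.4 (4.97 to 32.1) for this model of Glyma11g37380 and 12.1 (5.6 to 30.9) at Glyma18g01350. For the Glyma11g37380 models of 471 and 519 bases it was 22.1 (5.77 to 188) and 58.3 (10.1 to 2341). Those ratios rest on 2 and 1 reads in H2O, so the likeness of the 2 loci depends on the model used.

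The 3 models of Glyma11g37380 had 68, 44 and 58 reads in Mt, or an RPKM of 3.75, 3.21 and 3.84. In the other libraries no model had more than 6 reads. The lengths of 624, 471 and 519 bases differ, but how the authors divided reads among models that share sequence is not given in the sources used here, so their proportions are uncertain.

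*BUBR1*, the checkpoint protein that joins MAD2 in blocking CDC20, had the widest span of the 8 loci. Glyma07g20070 had 4 reads in H2O and 333 in Mt, with 30 in NaCl and 4 in NaCl+Mt, or an RPKM of 0.118, 9.91, 0.717 and 0.0739. NaCl was the second highest library here, and its interval (0.484 to 1.02) did not overlap those of H2O (0.0323 to 0.303) and NaCl+Mt (0.0201 to 0.189). The Mt:H2O ratio of rates was 83.7 (32.4 to 309).

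The other *BUBR1* locus, Glyma20g00930, had reads in Mt and almost none elsewhere: 49 in Mt, 2 in NaCl and 0 in both H2O and NaCl+Mt. Its RPKM was 1.41 in Mt and 0.0462 in NaCl. Against the floor of 3 reads per library, it was at least 16.4-fold higher in Mt than in H2O and at least 26.3-fold higher in Mt than in NaCl+Mt. These bounds take the 49 reads in Mt as exact, and the lower 95% limits that also count their error were 12.9 and 20.6. No ratio is given for its other comparisons, in which both libraries had 3 reads or fewer.

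*BUB3*, which brings BUBR1 to kinetochores in yeast and animals and is the most highly read of the 8 loci, had 68 reads in H2O and 402 in Mt, with 88 in NaCl and 136 in NaCl+Mt. Its RPKM was 2.27, 13.5, 2.37 and 2.84. It had the lowest share of its summed RPKM in Mt, 64.3%, while the shares of the other 7 loci ran from 72.5% to 96.8%. Over the 32061 loci with at least 100 reads in all, the median share in Mt was 26%, and 7.3% of them had a share at or above that of *BUB3*. The Mt:H2O ratio of rates of *BUB3* was 5.94 (4.58 to 7.8).

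*ESP1*, the separase that acts after the checkpoint is released, has the longest models, with 5655 and 6159 bases, and the lowest RPKM for its reads. Glyma08g19650 had 30 reads in H2O and 204 in Mt, with 47 in NaCl and 16 in NaCl+Mt, or an RPKM of 0.181, 1.24, 0.229 and 0.0603. Glyma15g05350 had 23, 295, 52 and 38 reads, or an RPKM of 0.128, 1.65, 0.233 and 0.132. Both were highest in Mt, and Glyma08g19650 was lowest in NaCl+Mt, where its interval (0.0345 to 0.098) lay below those of the other libraries. The Mt:H2O ratios of rates were 6.83 (4.64 to 10.4) and 12.9 (8.43 to 20.7).

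In Mt, the order of levels per length was *BUB3*, *BUBR1* Glyma07g20070, *MAD2* Glyma18g01350, *MAD2* Glyma11g37380, *TTK*, *ESP1* Glyma15g05350, *BUBR1* Glyma20g00930 and *ESP1* Glyma08g19650. The Poisson intervals of *BUB3* (12.2 to 14.9) and *BUBR1* Glyma07g20070 (8.87 to 11) overlapped with no other locus. *MAD2* Glyma18g01350, *MAD2* Glyma11g37380 and *TTK* overlapped as neighbours in this order. So did *ESP1* Glyma15g05350 with *BUBR1* Glyma20g00930, and the latter with *ESP1* Glyma08g19650. Among all loci these levels were moderate: the 8 loci exceeded from 32.8% to 76.6% of loci in Mt, with a median of 46.7%, against a median of 24.8% in H2O.

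To be called higher or lower, a locus needed a 2-fold or larger ratio of RPKM + 0.1 and an RPKM of 1 or more in either library compared. In Mt:H2O, all 8 loci passed this filter and all 8 were called higher, where 23.3% of the 33409 loci tested were called higher and 12.5% lower. With a pseudocount of 1 in place of 0.1, 7 were called, *ESP1* Glyma08g19650 being lost. The counting interval of the ratio of rates lay above 1 at all 8, where it did at 39.8% of loci and lay below 1 at 30.5%. Of the 8, 7 passed only through their level in Mt and so had to differ, and *BUB3* passed in both libraries. The log2 ratios ran from 2.25 at *ESP1* Glyma08g19650 to 5.52 at *BUBR1* Glyma07g20070, with a median of 3.23, while the median over all loci tested was 0.09. The 8 log2 ratios lay above those of 88.4% to 98.9% of the loci tested. In NaCl+Mt:Mt, which shares the Mt library, all 8 were called lower, where 21.7% of 33197 loci were and 10.4% were called higher. Again 7 of them passed the filter only through Mt and so had to differ. The counting interval lay below 1 at all 8, where it did at 44.8% of loci and lay above 1 at 27.2%. Those log2 ratios ran from -5.85 at *BUBR1* Glyma07g20070 to -2.21 at *BUB3*, with a median of -3.46.

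**Figure D2:**
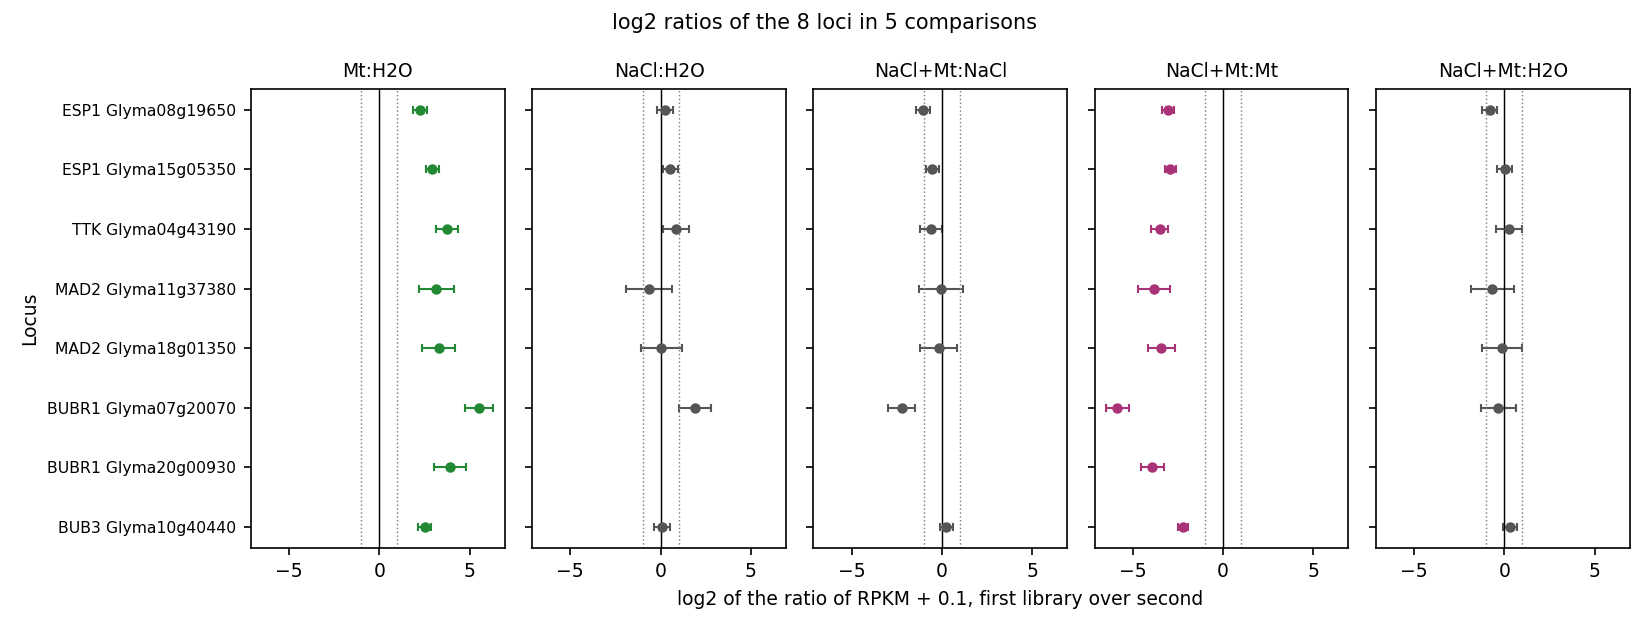
log2 of the ratio of RPKM + 0.1 for each locus in 5 comparisons (first library over second), with bars of the 95% counting error; green points were called higher, purple lower and grey not called, dotted lines mark a fold of 2, and comparisons with 3 reads or fewer in both libraries are left out. All 8 points lie to the right in Mt:H2O and to the left in NaCl+Mt:Mt, and points against a library with 0 reads (*BUBR1* Glyma20g00930) depend on the 0.1 added.

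In NaCl all 8 loci were below their level in Mt. In NaCl:H2O, *BUB3* alone passed the filter, with a log2 of 0.06 (counting standard error 0.223), and it was not called, where 7.51% of 30317 loci were called higher and 12.2% lower. Without the filter, reads still differed at some loci. The 95% counting interval of the ratio of rates lay above 1 at 3 of the 7 loci with more than 3 reads in the pair, where 22.6% of 37328 loci had such an interval and 36.2% had one below 1. These were *BUBR1* Glyma07g20070 with a ratio of 6.05 (2.13 to 23.6), *TTK* with 2.33 (1.06 to 5.65) and *ESP1* Glyma15g05350 with 1.82 (1.1 to 3.12). The intervals of *ESP1* Glyma08g19650, 1.26 (0.783 to 2.07), *BUB3*, 1.04 (0.752 to 1.45), and both *MAD2* loci held 1. With 4 and 6 reads at *MAD2* Glyma11g37380 and 9 and 7 at Glyma18g01350, intervals of 0.112 to 2.27 and 0.344 to 3.28 leave changes of 2-fold undetectable at this depth. The median log2 of all loci in this comparison moved by 0.12 when libraries were scaled by median of ratios, and no call at the 8 loci changed.

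Melatonin given together with salt did not bring the loci to the level of the Mt library. In NaCl+Mt:NaCl, again only *BUB3* passed the filter, and its log2 of 0.25 (counting standard error 0.19) was not called, where 10.6% of 30262 loci were called higher and 4.8% lower. Intervals of the ratio of rates lay below 1 at 3 of the 7 loci with more than 3 reads, where 26.7% of 37937 loci had such an interval and 32.4% had one above 1. *BUBR1* Glyma07g20070 had a ratio of 0.103 (0.0264 to 0.292), from 30 reads in NaCl to 4 in NaCl+Mt. *ESP1* Glyma08g19650 had 0.263 (0.139 to 0.472) and *ESP1* Glyma15g05350 had 0.565 (0.362 to 0.874). *TTK*, with 0.565 (0.295 to 1.06), and both *MAD2* loci had intervals that held 1.

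In NaCl+Mt:H2O, *BUB3* passed the filter with a log2 of 0.31 (counting standard error 0.206) and was not called, where 5.2% of 30219 loci were called higher and 3.99% lower. *ESP1* Glyma08g19650 was the 1 locus of 7 whose interval did not hold 1, with a ratio of 0.333 (0.169 to 0.63), where 29.5% of 37818 loci had an interval below 1 and 21% one above. *BUBR1* Glyma07g20070 had 4 reads in each library, a ratio of 0.623 with an interval from 0.116 to 3.35. Of the intervals that held 1, those of *BUB3* (0.925 to 1.69) and *ESP1* Glyma15g05350 (0.598 to 1.81) lay within a fold of 2 in either direction, and the others left larger differences undetectable at this depth.

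The log2 ratio for melatonin with salt (NaCl+Mt:NaCl) minus that without salt (Mt:H2O) was negative at all 8 loci, with a median of -3.46 against -0.09 over 33853 loci with an RPKM of at least 1 in any library. It was -7.75 at *BUBR1* Glyma07g20070 (counting standard error 0.554) and -4.35 at *TTK* (0.438). It was smallest in size at *BUB3*, with -2.27 (0.263), and 11.4% of loci had a lower value than *BUB3*. The other loci lay between -4.47 and -3.2, the former being *BUBR1* Glyma20g00930, whose value rests on 2 reads or fewer in 3 of the 4 libraries. The levels in Mt, with which the loci were chosen in view, enter this difference, and its sign is a description.

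Pairs of loci with the same symbol were compared by their reads within a library. Reads that map equally well to both copies may have been dropped, since the methods name uniquely mapped reads, and soybean gene pairs can be nearly identical. For *BUBR1*, Glyma07g20070 had 87.2% of the reads of the pair in Mt (Clopper-Pearson 95% interval 83.4 to 90.4), and per length its level was 7.03 times that of Glyma20g00930 (5.19 to 9.69). In NaCl its share was 93.8% (79.2 to 99.2) of 32 reads, and H2O and NaCl+Mt had only 4 reads each for the pair. For *MAD2*, by the 624-base model of each locus, Glyma11g37380 had 44.7% of the reads in Mt (36.7 to 53). The intervals of all 4 libraries held 50%, so that neither of these models was detectably higher at this depth. Over all its models Glyma11g37380 had 170 reads in Mt, against 84 at Glyma18g01350. How reads were divided among models is not given, so which locus was read more is uncertain.

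For *ESP1*, Glyma08g19650 had 56.6% of the reads of the pair in H2O (42.3 to 70.2), 47.5% in NaCl (37.3 to 57.8), 40.9% in Mt (36.5 to 45.3) and 29.6% in NaCl+Mt (18 to 43.6). Per length, its level relative to Glyma15g05350 was 1.42 (0.798 to 2.56) in H2O, 0.984 (0.649 to 1.49) in NaCl, 0.753 (0.627 to 0.903) in Mt and 0.459 (0.239 to 0.842) in NaCl+Mt. The intervals of all 4 libraries overlapped for the share of reads, those of H2O and NaCl+Mt only between 42.3% and 43.6%. Overlap does not show a constant balance, and a difference in this balance between libraries was not tested.

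**Figure D3:**
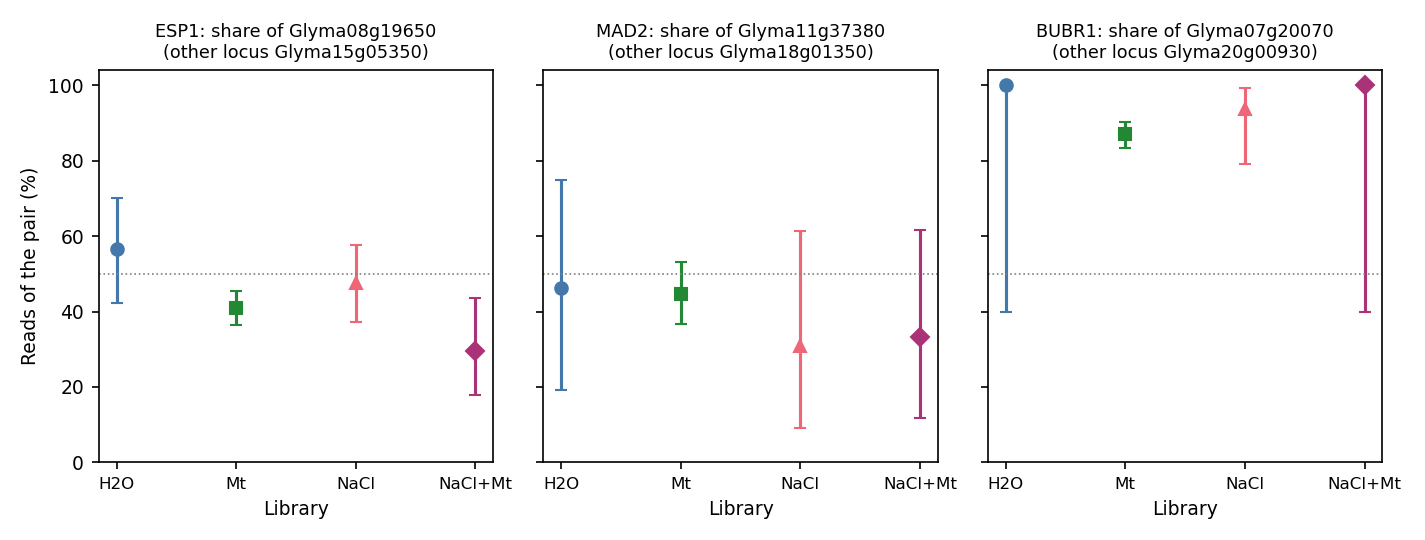
Share of the reads of each pair (percent, y axis) that fell on the first locus, by library, with Clopper-Pearson 95% intervals; the dotted line marks 50%. *BUBR1* reads came mainly from Glyma07g20070 in Mt and NaCl. *MAD2* reads, counted on the 624-base model of each locus, were divided without a detectable excess. The *ESP1* share of Glyma08g19650 ran from 29.6% in NaCl+Mt to 56.6% in H2O.

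Beside these 8 loci, the supplement lists 32 other cell cycle loci (cyclins A and B, *CDH*, *WEE*, *GRF*, the CDC genes and *ORC*) and 22 loci of DNA replication (MCM helicase subunits, polymerases, primases and replication factor A). In Mt:H2O all 32 and all 22 were called higher, with median log2 ratios of 4.15 and 2.71, beside 23.3% called higher and a median of 0.09 over all loci tested. In H2O only 2 of the 32 and 11 of the 22 had an RPKM of at least 1. The rest passed the filter only through Mt and so had to differ. These lists come from the same supplement and are likewise not independent evidence. The 18 leaf photosynthesis loci were also all called higher in Mt, with a median log2 of 2.28, and their part in the level of the spindle genes was not tested. In NaCl:H2O, 4 of the 6 other cell cycle loci, 1 of the 14 DNA replication loci and 13 of the 18 photosynthesis loci that passed the filter were called higher, and none lower, beside 7.51% higher and 12.2% lower over all loci tested. Only 2 of these 6 cell cycle loci had an RPKM of at least 1 in H2O. The rest passed only through NaCl and could not be lower there. Over all members, passed or not, the medians were 0.39 for the 8 spindle and separase loci, 0.83 for the other cell cycle loci and -0.17 for DNA replication, and the photosynthesis loci had 1.39. In NaCl+Mt:NaCl the medians in the same order were -0.54, -0.66, 0.18 and -0.36.

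**Figure D4:**
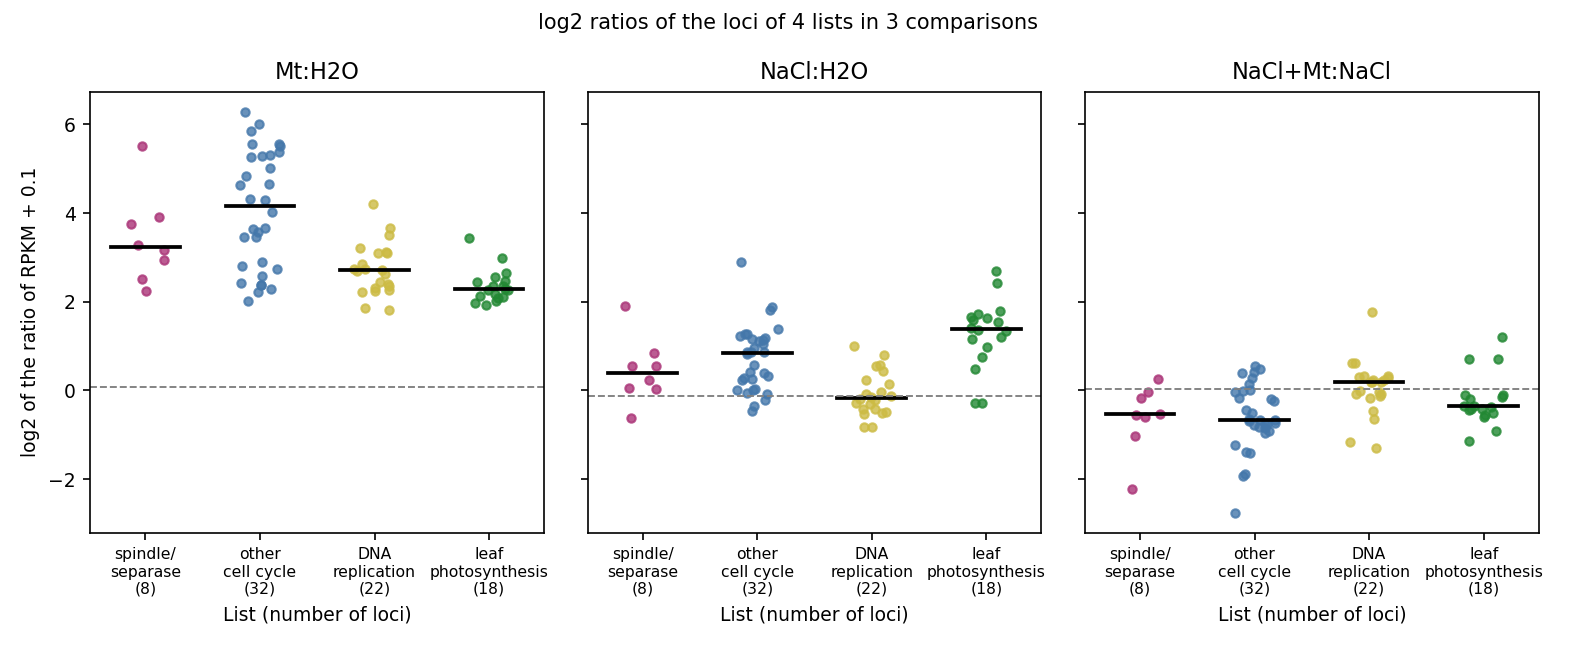
log2 of the ratio of RPKM + 0.1 for each locus (points) of 4 lists in Mt:H2O, NaCl:H2O and NaCl+Mt:NaCl, with the median of each list (black bar) and the median over all loci that passed the filter (dashed line). All points of the 4 lists lie above 1 in Mt:H2O, while in the other comparisons the spindle and separase loci lie between -2.23 and 1.90.

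The loci lie on chromosomes 4, 7, 8, 10, 11, 15, 18 and 20 by the number in their names, so that no pair shares a chromosome. Locus numbers run along the chromosome, and the 5 loci on each side were examined in Mt:H2O as a description of position. Of 62 neighbours that passed the filter, 14 were called higher (22.6%) and 12 lower, beside 23.3% higher and 12.5% lower over all loci tested. The median log2 of the neighbours of a locus ran from -0.49 to 0.52. A log2 at or above that of the flanked locus was found at 2 neighbours: Glyma18g01310 beside *MAD2* Glyma18g01350, with 3.75, and Glyma10g40410 beside *BUB3*, with 3.30. Because the 8 loci lay above 88.4% to 98.9% of the loci tested, few loci at any position would reach them.

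Up to 3 places before each *MAD2* locus, the Mt:H2O log2 ratios had the same signs on both chromosomes. Glyma11g37350, 3 places before *MAD2* on chromosome 11, was higher in Mt with a log2 of 2.88, and Glyma18g01310, 3 places before *MAD2* on chromosome 18, had 3.75. The loci 2 places before were lower in Mt, with -2.93 for Glyma11g37360, which the supplement names *GAPC1*, a glycolytic dehydrogenase, and -2.12 for Glyma18g01330. The loci directly before had -1.60 (Glyma11g37370) and -2.22 (Glyma18g01340). *POLA2* (Glyma18g01290), a subunit of the polymerase that starts DNA synthesis, stood 5 places before *MAD2* on chromosome 18 and had 3.10. These neighbours were named after their values were seen. Not every place matched: 3 places after *MAD2*, Glyma11g37410 had 2.05 without passing the filter, and Glyma18g01380 had -0.55. Sequences were not compared, so whether the order of genes is alike was not tested.

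**Figure D5:**
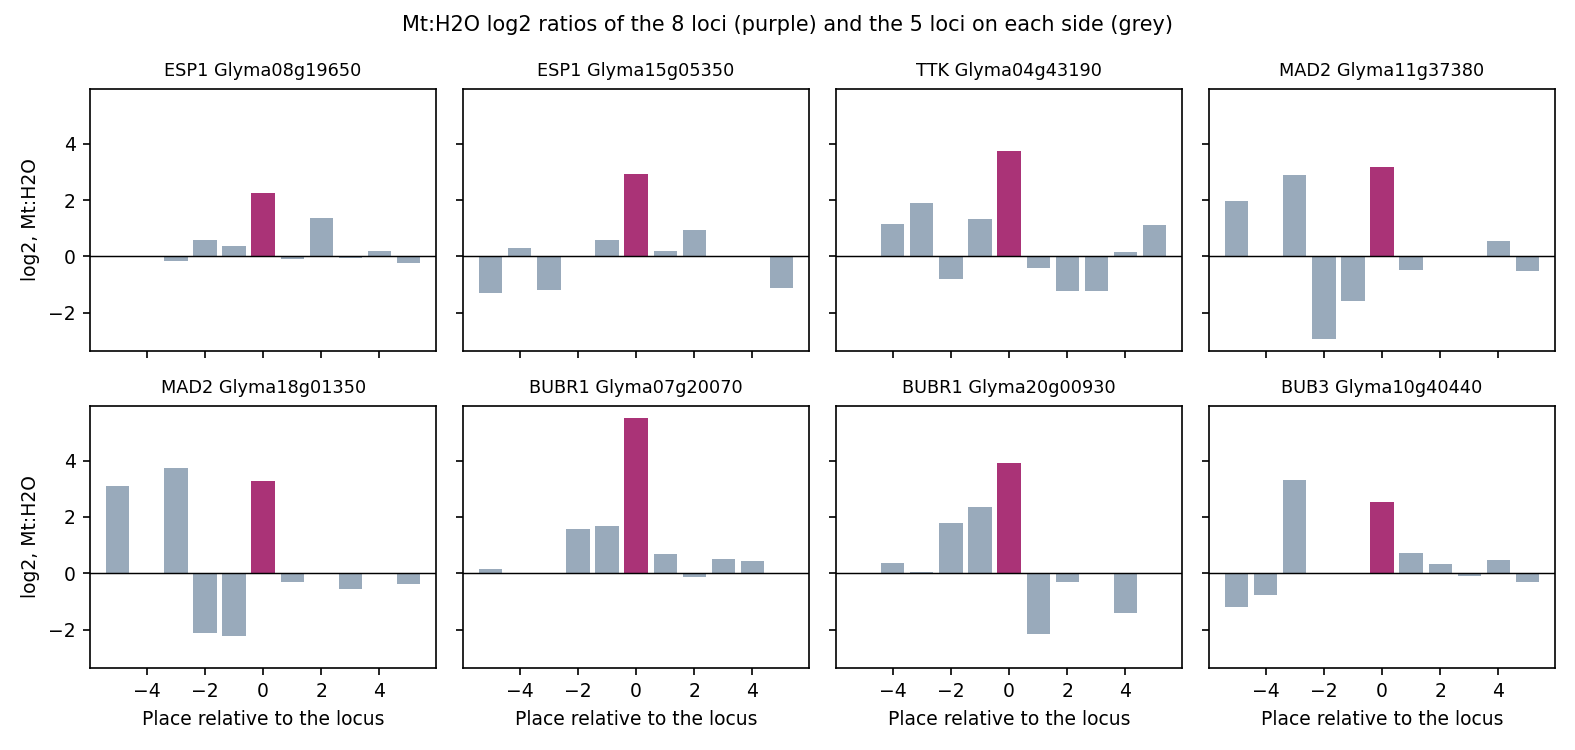
log2 of the ratio of RPKM + 0.1 in Mt:H2O (y axis) for each of the 8 loci (purple) and the loci up to 5 places before and after it in the locus numbering (grey), with loci that did not pass the RPKM filter left out. The purple bar is the highest in 6 of the 8 panels, the exceptions being *MAD2* Glyma18g01350 and *BUB3*.

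The 8 loci varied among themselves in how far they departed from their shared profile. The profile was the median, over the 8 loci, of log2(RPKM + 0.1) in the 4 libraries after subtracting each locus's mean, and likeness was the Euclidean distance to it. *MAD2* Glyma18g01350 was nearest to it, at 0.315, and *BUBR1* Glyma07g20070 farthest, at 1.97. Among 40443 other transcripts with at least 100 reads, 240 lay within the median distance of the 8 loci. The 5 nearest were Glyma09g04850.1, Glyma18g48210.1, Glyma02g01930.1, Glyma05g00470.2 and Glyma07g37180.1, at distances from 0.11 to 0.17. Glyma02g01930 is named *FUM2*, a fumarase, in the supplement, and its RPKM was 37.8 in Mt, 4.5 in NaCl, 3.65 in H2O and 2.82 in NaCl+Mt. With a profile of only 4 libraries, many transcripts come close, and with a pseudocount of 1 none of these 5 was among the 5 nearest. Within the distance of the farthest of the 8 loci lay 4643 transcripts. Among the 100 nearest transcripts was 1 locus of the other cell cycle list and 1 of the DNA replication list.

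The deposited RPKM column did not follow the counts for all of these genes. Of the 40 values of the 10 transcript models, 15 were listed at an RPKM of 0 although reads were counted, 6 in H2O, 3 in NaCl, 6 in NaCl+Mt and none in Mt. *ESP1* Glyma08g19650 was listed at 0 in NaCl with 47 reads and at 0.181 in H2O with 30. On the deposited values its NaCl:H2O log2 was -1.49, against 0.23 from the counts. The reads are therefore the basis of every value above.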

How the data were processed

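RNA-seq was performed on 4 soybean leaf libraries, 1 per treatment. After trimming adaptors and discarding low-quality reads, the authors mapped with BWA 0.7.4 to the soybean genome and deposited a read count, which the methods describe as uniquely mapped, and an RPKM per transcript model. The deposited RPKM above 0 equalled counts scaled by length and library depth within 0.002 or 0.1%, but 9.43% to 11.5% of transcripts with reads were listed at 0. RPKM were therefore recomputed from the counts, with the divisor implied by the deposited values. Model lengths are nearly all multiples of 3 (95.8%), so they are mainly coding lengths.

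Each locus was represented by its model with the highest mean RPKM. Log2 ratios used a pseudocount of 0.1, which understates changes of low genes. Ratios of rates have exact intervals conditional on the summed reads (95%), from scipy 1.17.1. The calling and the intervals were tested on simulated data that held counting error alone. Changes were placed there only in loci with a higher mean RPKM than most of these 8 loci have. Calling at low levels and variation between libraries were therefore not tested. The named genes are the 8 loci and the 5 transcripts nearest in profile. The members, lists and tests were chosen with earlier results of these data known. No locus ID matched the RefSeq table (Glycine_max_v4.0), so no sequences or motifs are shown, and markers of dividing cells, meristem, nodule and flower were not used here. The 7 alternative settings were pseudocounts of 0.01 and 1, the deposited RPKM, no filter, a fold of 4, median-of-ratios scaling and summed models.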

Additional observations from a re-analysis of the deposited data

Results flagged for a closer look

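At 3 loci the reads differed in opposite directions for melatonin without and with salt, with counting intervals of the ratio above 1 in Mt:H2O and below 1 in NaCl+Mt:NaCl. Of 37265 loci with more than 3 reads in both comparisons, 12.3% met the same condition, and 7 of the 8 loci had that many reads. All 8 loci, chosen with their levels in Mt in view, already met the first part. The 12.3% is therefore not a like background for them, and no excess is read from it. The first part held at 39.8% of 39052 loci in Mt:H2O, and the second at 26.7% of 37937 loci in NaCl+Mt:NaCl. Each direction rests on 1 pair of libraries, and the difference was not tested. *BUBR1* Glyma07g20070 had 4 reads in H2O and 333 in Mt, but 30 in NaCl and 4 in NaCl+Mt, a log2 difference (with salt minus without) of -7.75. *ESP1* Glyma08g19650 had a log2 difference of -3.29, and *ESP1* Glyma15g05350 had -3.46.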

How the results depend on the processing

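In NaCl+Mt:Mt all 8 loci were called lower under every alternative run, and in Mt:H2O all 8 were called higher except with a pseudocount of 1, which gave 7. The median log2 of the 8 loci in Mt:H2O, 3.23 in the report, was 4.61 with the deposited RPKM and 1.87 with a pseudocount of 1, and in NaCl+Mt:Mt it was -1.88 with a pseudocount of 1 against -3.46. Raising counts under 3 to 3, which was added after seeing the data, gave medians of 3.09 and -3.36 for these comparisons. Without the filter on RPKM, 1 locus was called higher in NaCl:H2O and 2 were called lower in NaCl+Mt:NaCl, where 0 were called with it. Over all loci, 7.27% and 5.08% were called so without the filter. Median-of-ratios scaling and summing the models of a locus moved none of the 40 single-locus log2 ratios beyond counting error, while the deposited RPKM moved 18, a pseudocount of 1 moved 21 and a pseudocount of 0.01 moved 12. Summing could act only at *MAD2* Glyma11g37380, the only locus with several models. There it gave 4.09 in Mt:H2O against 3.16. In NaCl:H2O it gave 0.29 against -0.63, a change of sign that the wide counting error of this locus covers. No direction of a called value reversed. Depth limits the *MAD2* loci and *BUBR1* Glyma20g00930 most, with 10 reads or fewer outside Mt. No paired analysis was possible because each condition had 1 library, and no library could be left out for the same reason.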
